A study of Mus musculus with 10 samples.

Results

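A set of 9 genes that make, branch, degrade or regulate glycogen in the liver was followed in refed and fasted livers with hepatocyte NAMPT and in fasted livers without it. They are Ppp1r3b, Ppp1r3c, Ppp1r3g, Gys2, Gbe1, Ugp2, Pygl, Phka2 and Gsk3b. They were chosen by symbol, and all 9 members were found among the 41388 genes listed for every library and passed the filter on low values. The livers came from mice of strain C57B/6J, about 12 weeks old, and each library was made from 1 liver. The libraries form 3 groups. WT refed mice (n = 2) had been fasted for 22 h and then refed for 2 h, WT fasted mice (n = 3) had been fasted for 24 h, and NAMPT LKO fasted mice (n = 5) were littermates fasted for 24 h. Mice of every group carry Nampt alleles flanked by LoxP sites. In WT mice the gene is intact, and in NAMPT LKO mice Albumin-cre deletes it in hepatocytes, so that other liver cells keep it. The study's text describes a shorter fast and random-fed controls, whereas the times used here are those of the sample labels. No NAMPT LKO mice were refed, so the effect of the deletion after refeeding could not be compared.

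Glycogen is the branched glucose store of the hepatocyte, built after a meal and broken down during a fast. UGP2 makes the activated glucose donor, liver glycogen synthase (GYS2) extends the chains, GBE1 adds the branches, and liver glycogen phosphorylase (PYGL) releases glucose phosphate from the chain ends. Much of the control is by phosphorylation of these enzymes rather than by their mRNA. Phosphorylase kinase, of which PHKA2 is the liver regulatory subunit, activates the phosphorylase, GSK3B phosphorylates and inactivates the synthase, and the PPP1R3 subunits bring protein phosphatase 1 (PP1) to the glycogen particle, where it reverses these marks.

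Sequencing gave 42170825 and 43218540 counts in the WT refed livers, 33947232 to 43434139 in the WT fasted livers and 30603080 to 41160486 in the NAMPT LKO fasted livers. Levels below are TMM CPM, counts scaled by library total and by edgeR's TMM factor, and each group mean has its SD. Nampt, the targeted gene, was at 72.9 ± 7.25 CPM (SD, n = 2) in WT refed, 92.4 ± 42.3 CPM (SD, n = 3) in WT fasted and 13.2 ± 1.49 CPM (SD, n = 5) in NAMPT LKO fasted livers, and each NAMPT LKO library was below each WT library. A pair of libraries stood apart in the share of counts on the mitochondrial genome, NAMPT LKO fasted 5 with 21.1% and WT fasted 3 with 7.42%, against 10.4% to 12.9% in the other 8. Of 8 hepatocyte markers 7 were matched, and their summed level was between 60122 and 106742 CPM in every library. Summed cholangiocyte markers were at 20.2 to 22.8 CPM in WT refed, 15.3 to 22.7 CPM in WT fasted and 34.3 to 54.5 CPM in NAMPT LKO fasted livers. Summed Kupffer cell markers were at 173 to 214, 225 to 439 and 154 to 350 CPM in the same order. Their median log2 fold change was 0.62 in WT fasted against WT refed livers, with none called, and their part in other results was not tested.

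Ppp1r3g and Ppp1r3c had the most variable mRNA of the 9 genes, and the sequences before their RefSeq start sites are therefore shown. Both were read from the RefSeq promoter windows of GRCm38.p6, without the bases that the gene models used for counting treat as exon. The Ppp1r3g stretch lies at chr13:35967656-35967852 on the plus strand and the Ppp1r3c stretch at chr19:36736654-36736854 on the minus strand. The gene model used to count Ppp1r3g begins upstream, at 35958839, so this stretch lies inside the counted gene and not before its first exon. Capitals mark a match to a searched motif.
Ppp1r3g: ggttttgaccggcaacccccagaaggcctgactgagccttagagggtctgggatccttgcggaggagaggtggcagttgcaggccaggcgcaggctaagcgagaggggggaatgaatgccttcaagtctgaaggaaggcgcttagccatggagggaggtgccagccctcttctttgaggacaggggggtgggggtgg
Ppp1r3c: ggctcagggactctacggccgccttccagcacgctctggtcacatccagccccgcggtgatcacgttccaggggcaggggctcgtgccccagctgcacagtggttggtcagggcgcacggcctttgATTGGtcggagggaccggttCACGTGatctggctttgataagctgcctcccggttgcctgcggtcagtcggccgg
Capitals in the Ppp1r3c stretch are the E-box CACGTG, 104 bases before the RefSeq start site, and a reverse-strand CCAAT box (ATTGG) 124 bases before it. The Ppp1r3g stretch holds no searched motif. Its 3 matches before the start site, a GC box (GGGCGG) that begins at 54 bases, the cyclic AMP response core TGACG at 40 bases and a CCAAT box at 18 bases, lie in the stretch that was left out, except for the first base of the GC box.

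Windows of 300 bases, of which 250 precede the RefSeq start site, were present for 7 of the 9 genes, with a pair of windows for Ugp2. For Ppp1r3g, Ppp1r3c, Pygl and 1 window of Ugp2 that start site lies inside the gene span used for counting. Gys2 and Ppp1r3b had none. Each motif was searched on both strands in the 8 windows of the set and in 32851 windows of all genes. GGGCGG was in 6 of the 8 windows against 35.7% of all windows, CCAAT in 4 against 37.4%, and TGACG in 2 (Ppp1r3g and Pygl) against 20.8%. CACGTG was in 1 (Ppp1r3c) against 7.15%, the C/EBP motif TTGCNNAA in 1 (Ugp2) against 10.8%, AGAACA, a glucocorticoid receptor core, in 1 (Phka2) against 19.0%, and TATAAA in 1 (Gsk3b) against 13.6%. The FOXO core TGTTTAC (3.65% of all windows), the full cyclic AMP response element TGACGTCA (1.79%), which contains TGACG, and the PPAR DR1 element (0.0396%) were in none of the 8. These are matches of letters in a window and were not tested as binding sites.

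The difference between fasted and refed WT livers asks how the glycogen genes differ between a continued fast and 2 h of refeeding after a fast of 22 h. None of the 9 genes passed the test at an adjusted p of 0.05 (quasi-likelihood test of edgeR), where 7.04% of all 13444 tested genes did, and only Ppp1r3g passed at an unadjusted p under 0.05, against 22.3% of all genes. Ppp1r3g met the filter on low values only through fasted livers, so it was tested because it was high there. The 3 fasted livers did not overlap the 2 refed livers for 5 of the 9 genes, a separation seen for 49.7% of all genes. Ppp1r3g, Gys2 and Phka2 were above the refed livers, as 24.5% of all genes were, and Ppp1r3b and Gbe1 below them, as 25.1% were. The median log2 fold change of the 9 genes was -0.0094, and that of all tested genes was 0.037. Outside the PPP1R3 genes the largest was 0.27 in either direction.

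The comparison of NAMPT LKO fasted with WT fasted livers asks whether the fasting state of these genes depends on hepatocyte NAMPT. None of the 9 genes passed the test, the lowest adjusted p was 0.837, and none passed at an unadjusted p under 0.05, against 6.03% of all genes. By the adjusted p, 0.00744% of all genes passed, which is Nampt alone. No gene of the set separated the 5 livers from the 3, as 3.99% of all genes did. The median log2 fold change of the set was -0.02, against 0.00025 for all tested genes. In NAMPT LKO fasted against WT refed livers, where genotype and feeding differ together, Ppp1r3b alone of the 9 genes passed and was lower (11.2% of all genes passed, 6.58% as lower). Ppp1r3g and Gys2 also passed at an unadjusted p, which 26.1% of all genes did. Ppp1r3g and Gys2 lay above both refed livers (15.7% of all genes) and Ppp1r3b and Gbe1 below them (17.8%), 4 of 9 genes against 33.5% of all genes. The 3 comparisons share their libraries pairwise and are not independent of each other.

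**Figure D1:**
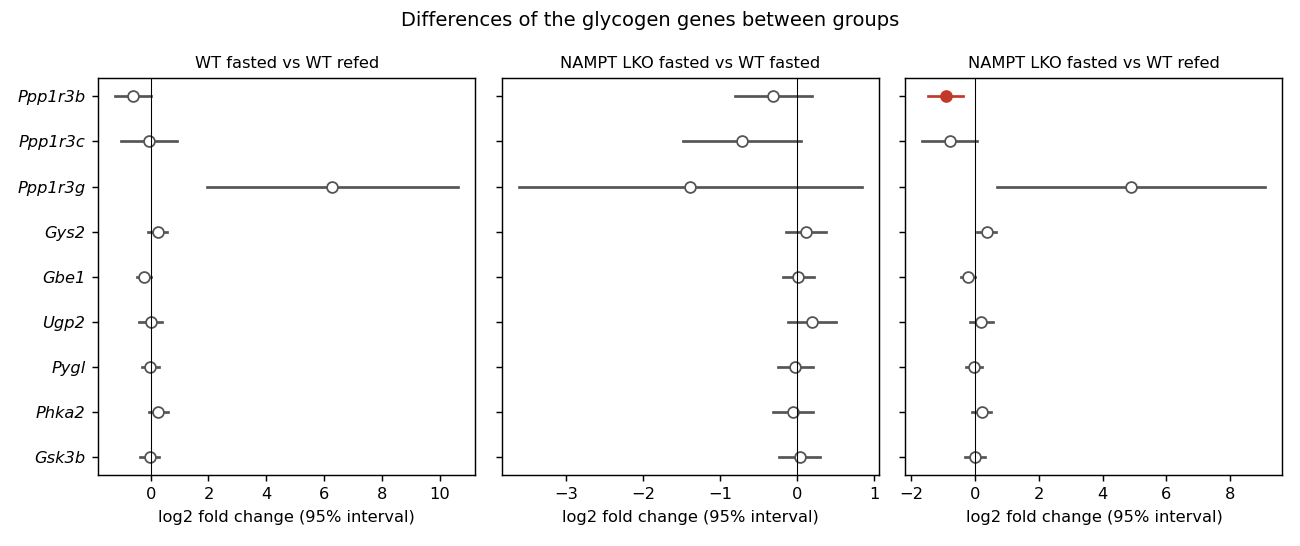
Log2 fold change of each gene (points) with its 95% interval (lines) from edgeR's quasi-likelihood fit in the 3 comparisons, each panel with its own axis range. The filled point is Ppp1r3b, the one gene that passed the test, in NAMPT LKO fasted against WT refed livers (-0.91). Intervals are widest for Ppp1r3g.

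Ppp1r3b encodes the PP1 targeting subunit best known from liver, where it brings the phosphatase to glycogen and activates the synthase. The gene (ENSMUSG00000046794) is on chromosome 8 (GRCm38, plus strand, 35375741 to 35388124), and reads were counted over 2 exon blocks of 4206 bases. Ppp1r3b was at 306 and 252 CPM in the WT refed livers, at 121, 209 and 220 CPM in the WT fasted livers and at 108, 176, 183, 115 and 158 CPM in the NAMPT LKO fasted livers. All 8 fasted livers were below both refed livers, and the fasted groups overlapped. The share of all genes that separated all 8 fasted livers from the refed livers was not counted. The means were 279 ± 38.3 CPM (SD, n = 2), 183 ± 54.2 CPM (SD, n = 3) and 148 ± 34.7 CPM (SD, n = 5).

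Ppp1r3b fell in NAMPT LKO fasted against WT refed livers by 0.91 on the log2 scale, to 0.532 of the refed level (adjusted p = 0.0410, quasi-likelihood test of edgeR; standard error 0.25). The adjusted p of this call rose to between 0.0517 and 0.281 without NAMPT LKO fasted 1, 2 or 4 or without either refed library, while the log2 fold change stayed between -1.05 and -0.78. WT fasted livers were 0.658 of the refed level (log2 fold change -0.60, interval -1.23 to 0.017, adjusted p = 0.235). The difference between the fasted groups was -0.31 (interval -0.81 to 0.19, adjusted p = 0.844), so a difference by genotype was not shown. In the same comparison with refed livers the cholangiocyte markers Spp1 and Epcam, the stellate cell marker Col1a1 and the endothelial marker Kdr were called. These are 4 of the 18 tested markers of the 3 cell types that held a call. Because these cell types were picked by their calls, that share cannot be set beside the 11.2% of all genes. None of the 7 hepatocyte, 6 Kupffer cell, 5 blood, 2 adipose and 1 skeletal muscle markers tested was called. The part of the called markers in the Ppp1r3b result was not tested, and in whole liver fewer cells of a type cannot be told apart from less RNA per cell.

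Ppp1r3c encodes a further glycogen-targeting subunit, also called PTG, which binds the synthase and the phosphorylase as well as PP1. The gene (ENSMUSG00000067279) is on chromosome 19 (minus strand, 36731737 to 36736653), with 2 exon blocks of 2719 bases. Ppp1r3c was at 53.4 and 72.8 CPM in WT refed, at 26.9, 80.3 and 73.1 CPM in WT fasted and at 24.4, 29.8, 41.7, 58.1 and 29.3 CPM in NAMPT LKO fasted livers. WT fasted 1 lay with the low NAMPT LKO livers, and the other 2 WT fasted livers were above all 5 of them. The log2 fold change between NAMPT LKO fasted and WT fasted livers was -0.71 (interval -1.48 to 0.053, adjusted p = 0.837), and it was -1.06 without WT fasted 1 and -0.45 without WT fasted 2. The adjusted p was at least 0.379 with any single library left out.

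Against WT refed livers, Ppp1r3c differed by -0.07 in WT fasted livers (interval -1.04 to 0.90, adjusted p = 0.947) and by -0.78 in NAMPT LKO fasted livers (interval -1.64 to 0.078, adjusted p = 0.237). The intervals were wide, and their limits follow from the spread between livers of 1 group. The within-group SD of Ppp1r3c was 0.60 on the log2 scale, larger than that of 96.4% of all tested genes.

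Ppp1r3g encodes a glycogen-targeting subunit and had the lowest mean of the 9 genes in each group, with a few counts per refed library. The gene (ENSMUSG00000050423) is on chromosome 13 (plus strand, 35958839 to 35970388), with 3 exon blocks of 2519 bases. Its counts were 5 and 2 in the WT refed livers, 765, 24 and 11 in the WT fasted livers, and 106, 92, 127, 12 and 89 in the NAMPT LKO fasted livers. In TMM CPM these were 0.11 and 0.046, then 18.3, 0.74 and 0.25, then 3.44, 2.95, 3.03, 0.33 and 2.63. Every fasted liver was above both refed livers. Among WT fasted livers 1 liver stood far above the others, and among NAMPT LKO livers 4 lay close together and 1 lay low.

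The spread of Ppp1r3g within a group was large beside its difference between the fasted groups. The ratio of each fasted library to the 2 refed libraries, which held 7 counts together, was 230 (111 to 575) in WT fasted 1, 9.35 (3.91 to 25.7) in WT fasted 2 and 3.13 (1.11 to 9.53) in WT fasted 3. It was 33.1 to 43.2 in NAMPT LKO fasted 1, 2, 3 and 5 and 4.09 (1.49 to 12.3) in NAMPT LKO fasted 4. These exact binomial intervals of 95% each lie above 1. They cover counting error only, take the 2 refed libraries as a pooled count and hold no spread between livers. The fitted log2 fold change of WT fasted against WT refed livers was 6.29 (standard error 1.98), with an edgeR quasi-likelihood p of 0.00879 that became 0.0844 after adjustment. Only WT fasted 1 and NAMPT LKO fasted 1, 2, 3 and 5 exceeded the filter's minimum of 1 CPM, so among the WT livers 1 liver alone carried the gene over it. A gene admitted in this way had to be higher in some fasted liver, so its p and the ratios above are given as a description. With each library left out the adjusted p ran from 0.0360 (without WT fasted 3, log2 fold change 6.85) to 0.425 (without refed library 2, 5.80). Without WT fasted 1 the log2 fold change was 2.55 (adjusted p = 0.255).

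The log2 fold change of Ppp1r3g in NAMPT LKO fasted against WT refed livers was 4.90 (interval 0.71 to 9.10, adjusted p = 0.128). NAMPT LKO fasted against WT fasted livers differed by -1.39 (interval -3.61 to 0.84, adjusted p = 0.844), and this turned to 2.35 (adjusted p = 0.535) when WT fasted 1 was left out. It was also positive, at 0.84, with the replicate block on libraries 1 to 3 of each fasted group, which kept WT fasted 1. Over the alternatives other than single libraries left out it ran from -1.98 to 0.84. No direction between the fasted groups was therefore shown. WT fasted 1 also had the lowest Ppp1r3b and Ppp1r3c and the highest G6pc of the 3 WT fasted livers, with 11.0% of counts on the mitochondrial genome.

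**Figure D2:**
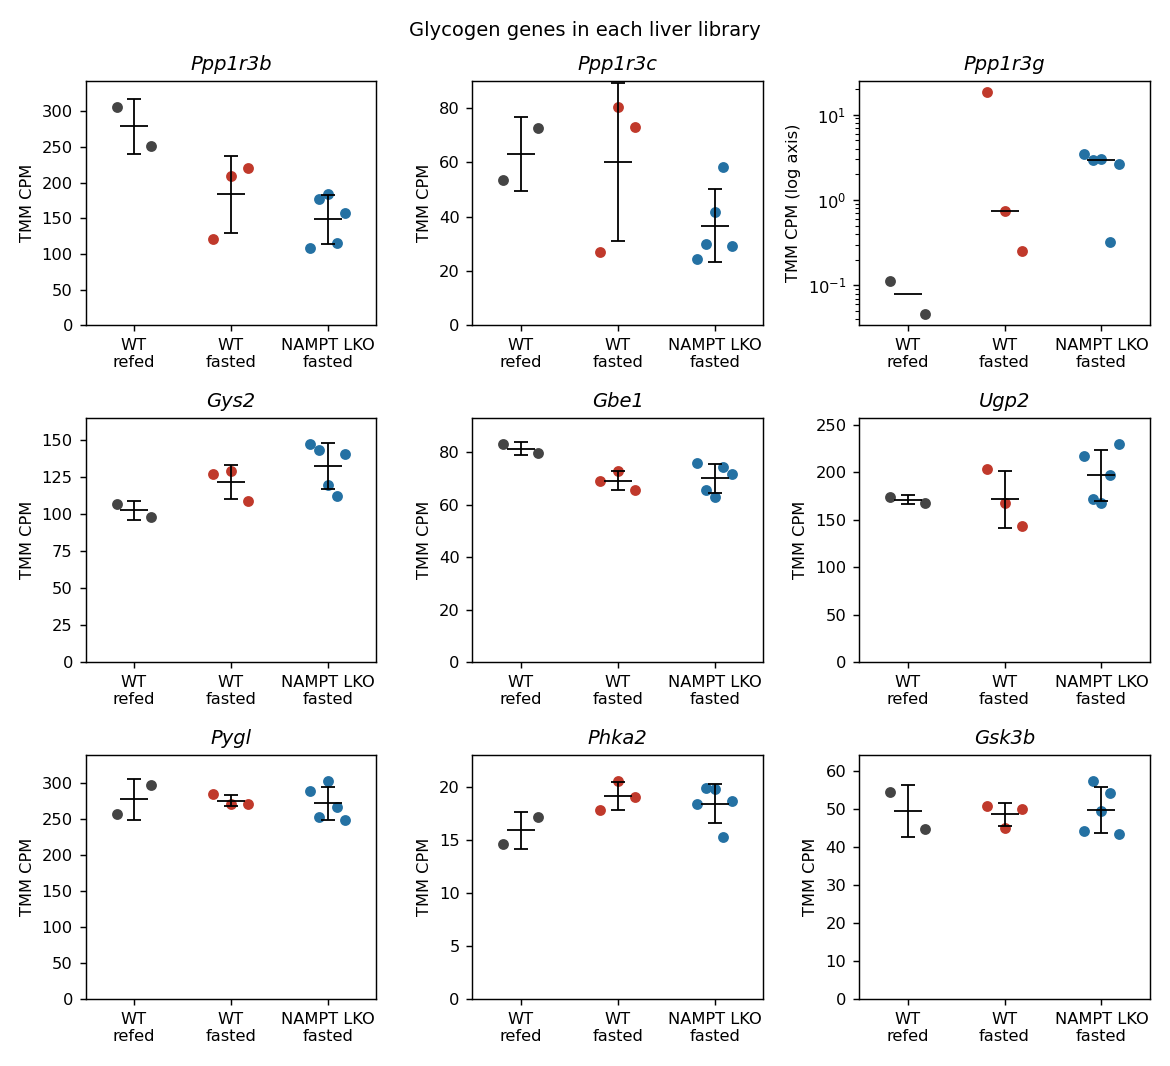
TMM CPM of each gene in each library (points), by group in the order WT refed (n = 2), WT fasted (n = 3) and NAMPT LKO fasted (n = 5). Lines and bars are the mean and SD, except for Ppp1r3g, which is on a log axis with its median. The 8 fasted livers sit below both refed livers for Ppp1r3b and above both for Ppp1r3g, and Pygl is nearly level across all groups.

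The targeting subunits can also be set beside each other per length, as TMM CPM per kb of exon. Their sum over Ppp1r3a to Ppp1r3g was 89.7 and 95.6 in the WT refed livers, 48.1 to 82.1 in the WT fasted livers and 39.0 to 62.8 in the NAMPT LKO fasted livers, and the fasted groups overlapped. Ppp1r3b was the largest part in all 10 libraries (52.6% to 76.0%) and Ppp1r3c the next (19.4% to 41.1%). Ppp1r3e, a further targeting subunit, was 2.95% to 6.998%. Ppp1r3g was 0.020% and 0.047% in the refed livers, 0.12% to 15.1% in the WT fasted livers and 0.25% to 3.50% in the NAMPT LKO fasted livers. The liver with 15.1% was WT fasted 1. Ppp1r3a, the muscle subunit, was at most 0.080% in any library, and summed skeletal muscle markers did not exceed 1.14 CPM.

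**Figure D3:**
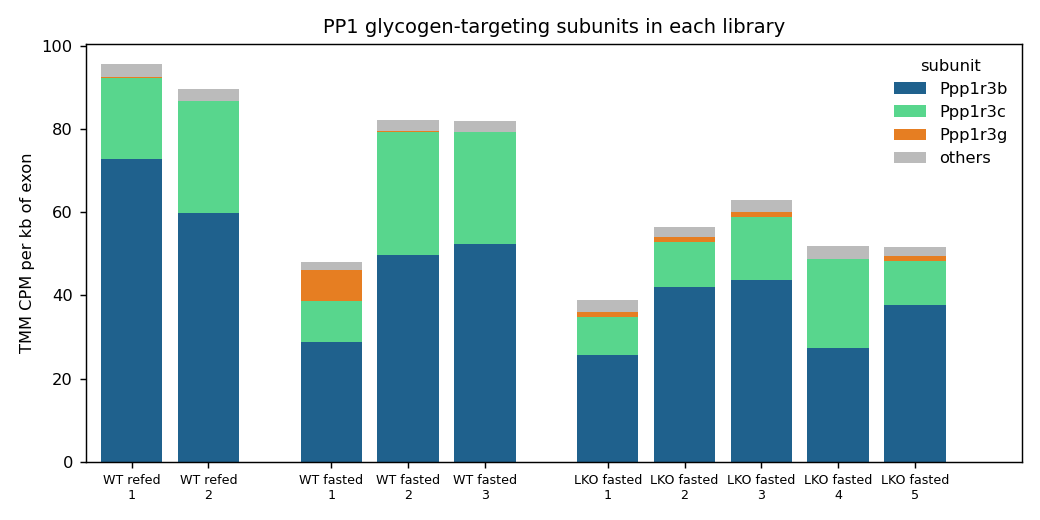
Level of the PP1 glycogen-targeting subunits in each library as stacked bars, in TMM CPM per kb of exon, with Ppp1r3a, d, e and f summed as others. Bars of the refed livers reach 89.7 and 95.6, Ppp1r3b is the largest part of every bar, and Ppp1r3g is visible mainly in WT fasted 1.

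Gys2, liver glycogen synthase, adds glucose to the growing chain. Gys2 (ENSMUSG00000030244) is on chromosome 6 (minus strand, 142422613 to 142473109), with 17 exon blocks of 2657 bases. It was at 107 and 98.4 CPM in WT refed, at 128, 130 and 109 CPM in WT fasted and at 147, 143, 120, 112 and 141 CPM in NAMPT LKO fasted livers. Each fasted liver was above both refed livers, WT fasted 3 by the smallest margin. WT fasted livers were above the refed livers for 24.5% of all genes, and NAMPT LKO fasted livers for 15.7%. The log2 fold change was 0.25 in WT fasted (interval -0.076 to 0.57, adjusted p = 0.355) and 0.37 in NAMPT LKO fasted livers (interval 0.067 to 0.67, adjusted p = 0.112), both against WT refed. Between the fasted groups it was 0.12 (interval -0.14 to 0.38, adjusted p = 0.863).

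Gbe1, the branching enzyme, moves short chain ends to make new branch points. Gbe1 (ENSMUSG00000022707) is on chromosome 16 (plus strand, 70313949 to 70569716), with 16 exon blocks of 5352 bases. It was at 83.0 and 79.6 CPM in WT refed, at 69.0, 72.9 and 65.6 CPM in WT fasted and at 75.7, 65.7, 63.0, 74.2 and 71.5 CPM in NAMPT LKO fasted livers. The 8 fasted livers were below both refed livers, and the fasted groups overlapped. WT fasted livers were below the refed livers for 25.1% of all genes, and NAMPT LKO fasted livers for 17.8%. The difference was small, -0.23 in WT fasted (interval -0.49 to 0.021, adjusted p = 0.262) and -0.21 in NAMPT LKO fasted livers (interval -0.45 to 0.016, adjusted p = 0.226). Between the fasted groups it was 0.02 (interval -0.19 to 0.22, adjusted p = 0.976). Its within-group SD of 0.096 on the log2 scale exceeded that of only 5.78% of all tested genes.

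Ugp2 makes UDP-glucose, the donor for the synthase. Ugp2 (ENSMUSG00000001891) is on chromosome 11 (minus strand, 21321138 to 21371201), with 11 exon blocks of 3069 bases, of which 78 overlap Gm12043 on the other strand. It was at 174 and 167 CPM in WT refed, at 203, 167 and 144 CPM in WT fasted and at 217, 172, 168, 197 and 229 CPM in NAMPT LKO fasted livers. All 3 groups overlapped, and the mean was highest in NAMPT LKO fasted livers (197 ± 27.2 CPM, SD, n = 5). The log2 fold change was 0.0039 in WT fasted against WT refed livers (interval -0.39 to 0.39, adjusted p = 0.992). It was 0.20 in NAMPT LKO fasted against WT fasted (interval -0.12 to 0.51, adjusted p = 0.844) and 0.20 against WT refed livers (interval -0.16 to 0.56, adjusted p = 0.485).

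Pygl, liver glycogen phosphorylase, carries out the first step of breakdown and had the most even level of the 9 genes. Pygl (ENSMUSG00000021069) is on chromosome 12 (minus strand, 70190811 to 70231488), with 22 exon blocks of 3828 bases. It was at 257 and 297 CPM in WT refed, at 284, 271 and 271 CPM in WT fasted and at 288, 252, 302, 267 and 249 CPM in NAMPT LKO fasted livers. The highest library was 1.21 times the lowest, and the groups overlapped in all 3 comparisons. The interval of the log2 fold change was -0.29 to 0.27 in WT fasted against WT refed, -0.24 to 0.21 in NAMPT LKO fasted against WT fasted and -0.29 to 0.23 in NAMPT LKO fasted against WT refed livers.

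Phka2 encodes the liver regulatory subunit of phosphorylase kinase. Phka2 (ENSMUSG00000031295) is on chromosome X (plus strand, 160502166 to 160598878), with 35 exon blocks of 6068 bases, of which 115 overlap the antisense gene Gm15243. It was at 14.7 and 17.1 CPM in WT refed, at 17.8, 20.5 and 19.0 CPM in WT fasted and at 18.4, 19.9, 19.9, 15.3 and 18.7 CPM in NAMPT LKO fasted livers. WT fasted livers were above the refed livers, and the NAMPT LKO livers overlapped both. The log2 fold change was 0.27 in WT fasted against WT refed livers (interval -0.058 to 0.59, adjusted p = 0.318). It was -0.05 in NAMPT LKO fasted against WT fasted (interval -0.31 to 0.20, adjusted p = 0.940) and 0.21 against WT refed livers (interval -0.086 to 0.51, adjusted p = 0.361).

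Gsk3b encodes a kinase that inactivates glycogen synthase and is itself inhibited downstream of insulin. Gsk3b (ENSMUSG00000022812) is on chromosome 16 (plus strand, 38089001 to 38246084), with 13 exon blocks of 9831 bases. It was at 54.4 and 44.8 CPM in WT refed, at 50.8, 45.2 and 50.1 CPM in WT fasted and at 44.4, 57.3, 49.5, 54.3 and 43.6 CPM in NAMPT LKO fasted livers. The groups overlapped throughout. The log2 fold changes were -0.03 (interval -0.35 to 0.30), 0.03 (interval -0.23 to 0.30) and 0.0056 (interval -0.29 to 0.30) in WT fasted against WT refed, NAMPT LKO fasted against WT fasted and NAMPT LKO fasted against WT refed livers.

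The 9 genes differed widely in how much they varied between livers of 1 group. The 3 targeting subunits were the most variable, with a within-group SD on the log2 scale of 1.51 for Ppp1r3g, 0.60 for Ppp1r3c and 0.38 for Ppp1r3b, larger than in 99.8%, 96.4% and 82.0% of all tested genes. The other 6 genes were less variable than the median gene, whose SD was 0.23, with Ugp2 the highest of them (0.20). From lowest to highest library the range was 397-fold for Ppp1r3g, 3.29-fold for Ppp1r3c and 2.82-fold for Ppp1r3b, and 1.21-fold to 1.60-fold for the other 6.

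Per length, Pygl had the highest mean level in every group, at 72.4 ± 7.38, 71.9 ± 2.00 and 70.9 ± 5.99 TMM CPM per kb of exon (SD, n = 2, 3 and 5) in WT refed, WT fasted and NAMPT LKO fasted livers. Ppp1r3b stood second in the refed livers (66.3 ± 9.09), where it overlapped Pygl and lay above Ugp2 (55.7 ± 1.60) and Gys2 (38.7 ± 2.36). In both fasted groups the order of the means was Pygl, Ugp2, Gys2, Ppp1r3b, and Ppp1r3b overlapped Gys2 (43.6 ± 12.9 and 45.9 ± 4.30 in WT fasted, 35.2 ± 8.26 and 49.9 ± 5.90 in NAMPT LKO fasted livers). Ugp2 also overlapped Gys2 in both fasted groups, and Pygl overlapped Ugp2 in NAMPT LKO fasted but not in WT fasted livers. Ppp1r3c followed in each group, at 23.2 ± 5.03, 22.1 ± 10.6 and 13.5 ± 4.99, then Gbe1, Gsk3b and Phka2. Ppp1r3c overlapped Gbe1 in both fasted groups and not in the refed one. Ppp1r3g was lowest, at 0.031 ± 0.019 in refed livers, 2.56 ± 4.09 in WT fasted livers, where it overlapped Phka2, and 0.98 ± 0.49 in NAMPT LKO fasted livers.

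Set beside their paralogs per length, the liver forms made up nearly all of the synthase and phosphorylase mRNA. Gys2 was 97.0% to 99.5% of Gys2 and Gys1 (the muscle synthase) together, and Pygl was 97.9% to 98.8% of Pygl, Pygb and Pygm together. Phka2 was 72.8% to 82.3% of the phosphorylase kinase alpha subunits, with Phka1 as the rest. Gsk3b was the smaller part of GSK3 mRNA, 20.3% to 28.3% in all 10 libraries, and Gsk3a held 71.7% to 79.7%. For Gsk3b the group means were 26.7%, 23.2% and 25.9% in WT refed, WT fasted and NAMPT LKO fasted livers.

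A list of 43 further genes of glycogen metabolism and its control was described by counts. Of these, 39 were tested, and Phkg1, Ppp1r3a, Ppp1r3d and Ppp1r3f were not, being too low. In WT fasted against WT refed livers 2 of the 39 were called, beside the 7.04% of all genes, and 10 passed at an unadjusted p, as 22.3% of all genes did. G6pc, which frees glucose from glucose phosphate, rose from 32.4 and 50.0 CPM to 668, 297 and 182 CPM (log2 fold change 3.21, adjusted p = 0.0044). Epm2aip1, which encodes a laforin-interacting protein, fell from 37.0 and 38.1 CPM to 23.0, 26.6 and 18.6 CPM (log2 fold change -0.73, adjusted p = 0.0271). None of the 9 core enzymes in the list, the 6 tested genes of phosphorylase kinase and calmodulin, the 4 tested genes of PP1 and its targeting subunits or the 12 receptors and kinases was called. The median over the 39 was -0.07.

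For NAMPT LKO fasted against WT fasted livers, edgeR called none of the 39 genes, and 1 passed at an unadjusted p, beside 6.03% of all genes. That gene was Gckr, with a log2 fold change of -0.31 (adjusted p = 0.798). In NAMPT LKO fasted against WT refed livers 3 of the 39 were called, beside 11.2% of all genes. G6pc was higher by 3.00 (adjusted p = 0.0032) and Insr, the insulin receptor, by 0.51 (adjusted p = 0.0206), and Epm2aip1 was lower, at -0.77 (adjusted p = 0.0094). Leaving out 1 refed library ended several of these calls. It took the calls of G6pc and Epm2aip1 in WT fasted livers and those of Epm2aip1 and Insr in NAMPT LKO fasted livers with either refed library, and that of G6pc in NAMPT LKO fasted livers with refed library 1. In WT fasted livers, Epm2aip1 was also not called without WT fasted 1 or WT fasted 3. Insr was also not called with library size as the only scaling or without the filter. The log2 fold change of G6pc was between 2.53 and 3.55 over all the alternatives in WT fasted against WT refed livers and between 2.71 and 3.34 in NAMPT LKO fasted against WT refed livers. In the same comparisons that of Epm2aip1 was between -0.85 and -0.60 and between -0.87 and -0.72. That of Insr was between 0.41 and 0.55 in NAMPT LKO fasted against WT refed livers.

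**Figure D4:**
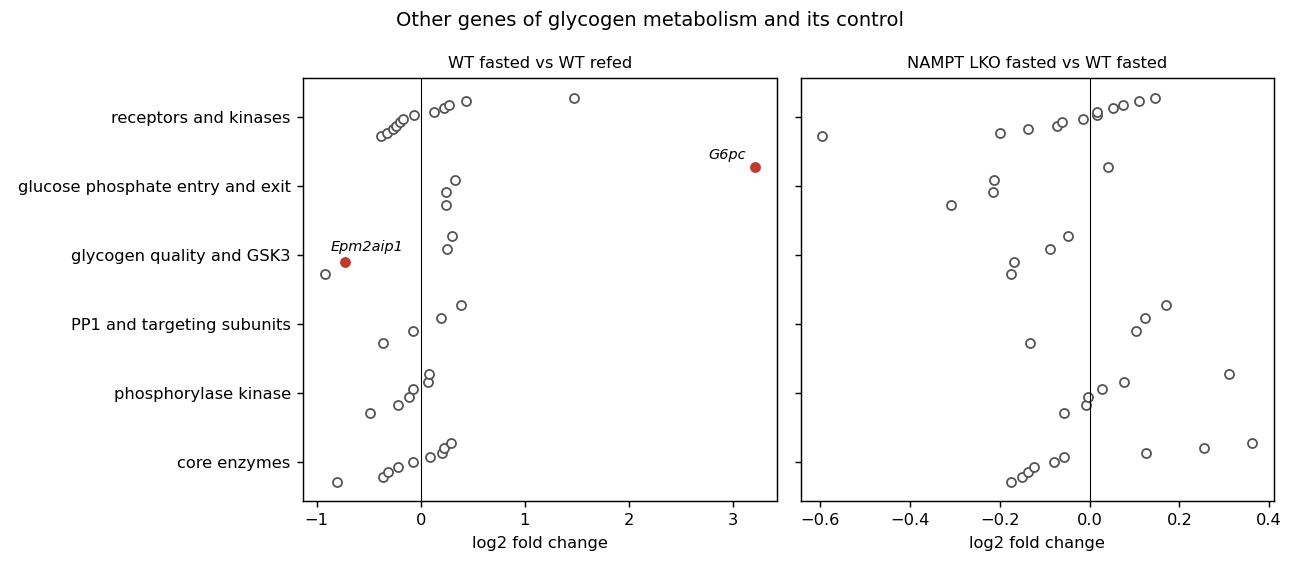
Log2 fold change of the 39 tested genes of the wider list (points), by role, in WT fasted against WT refed and NAMPT LKO fasted against WT fasted livers, each panel with its own axis range. Filled points passed the test. They are G6pc (3.21) and Epm2aip1 (-0.73) in the left panel, and there are none in the right panel.

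Genes with a like profile were sought for Ppp1r3c and Ppp1r3g, whose profiles varied enough over the 10 libraries (SD of at least 0.5 on the log2 scale), among 9152 genes whose mean was 5 CPM or more. Likeness was the root mean square difference of the centred log2 profiles. The most similar to Ppp1r3c were Leap2, which encodes a liver-expressed peptide, with a difference of 0.33, and Josd2, a deubiquitinase gene, with 0.34. Those most similar to Ppp1r3g were Pdk4, a kinase that inhibits pyruvate dehydrogenase, with 0.95, and Irs2, an insulin receptor substrate, with 0.97. Pdk4 was at 2.73 and 2.84 CPM in WT refed, 40.8, 9.95 and 15.9 CPM in WT fasted and 29.8, 24.4, 25.3, 20.3 and 31.7 CPM in NAMPT LKO fasted livers, and like Ppp1r3g it was highest in WT fasted 1. Irs2 was at 9.64 and 12.5, then 67.9, 13.9 and 21.1, then 33.1, 29.8, 48.7, 28.5 and 19.9 CPM in the same order, and also peaked in WT fasted 1. The profiles share the 10 libraries and the feeding groups, and the SD of the Ppp1r3g profile over them was 1.62.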

How the data were processed

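Liver RNA of 10 mice was sequenced as poly-A selected libraries of single short reads. The authors aligned reads with STAR (2.5.1a) to GRCm38 and counted unique alignments per Ensembl gene with featureCounts (1.4.6-p5), as named in the submitters' processing notes. Whether counting used strand is not stated. The authors deposited a count, a CPM and an RPKM per gene. The deposited CPM and RPKM values were recomputed from the counts and add no further normalization. Symbols from GENCODE M21 matched 40340 of 41388 genes.

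The filter asked for more than 1 CPM in any 1 library and dropped rRNA genes, so that 13444 genes were tested. After TMM scaling, the counts were tested in R 4.3.3 with the quasi-likelihood test of edgeR 4.0.16 (legacy glmQLFit), with all 10 libraries in one fit, 1 mean per group and Benjamini-Hochberg adjustment. Genes at an adjusted p at or under 0.05 were called. P-values weigh a difference between groups against the spread between livers, which was estimated from all groups together. The 2 refed libraries limit what can be detected. The labels put each library in its group, and the refed libraries carry no number of their own, so their numbers only name them. Alternatives were voomWithQualityWeights (limma 3.58.1), edgeR's exact test, DESeq2 1.42.0, other scalings and filters, fits of 2 groups, the replicate block and single libraries left out. Tests were also run on simulated data for NAMPT LKO fasted against WT fasted livers, with 13164 genes. Counts were drawn with the spread fitted to these libraries and with equal group means except for the changed genes. Genes called falsely numbered 9 with the quasi-likelihood test, 8 with voom, 33 with the exact test and 38 with DESeq2. In the same order the tests recovered 66, 65, 73 and 74 of 100 genes changed by 1 on the log2 scale. Of 100 genes changed by 2 they recovered 95, 93, 97 and 97. No replicate pair held identical values.

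The named genes are the 9 genes, Nampt, the called genes and paralogs of a wider list of 43 (a further gene of the list is not reported here), and the 2 genes most like each gene whose profile had an SD of at least 0.5 in log2(CPM + 0.5). Gckr was named after its value was seen. The genes and lists, marker lists included (hepatocyte, Kupffer, stellate, endothelial, cholangiocyte, blood, skeletal muscle, adipose, pancreas), were chosen with earlier results of these data known. None of the tested blood (5), Kupffer (6), adipose (2) and skeletal muscle (1) markers was called in any comparison, and no pancreas marker passed the filter. Promoter sequences are RefSeq windows of GRCm38.p6.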

Additional observations from a re-analysis of the deposited data

Results flagged for a closer look

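Within the 5 NAMPT LKO fasted livers, Ppp1r3g in NAMPT LKO fasted 4 lay far from the others, at 0.33 CPM against 2.63 to 3.44 CPM in the other 4. The gap to the nearest liver was 0.741 of the whole range, above the limit of 0.71 for 5 samples (Dixon's test). Chance gives such a gap in about 1 of 20 groups. The 9 genes were tested in this group, 1 passed and 0.45 would be expected. The library had 12 counts for Ppp1r3g out of 37300586, and 12.9% of its counts were on the mitochondrial genome, within the range of the other livers. It also held the highest Ppp1r3c of the 5 livers. Groups of 2 and 3 livers were not tested in this way.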

How the results depend on the processing

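The number of the 9 genes called was 0 under every alternative in NAMPT LKO fasted against WT fasted livers. In WT fasted against WT refed livers it was 1, Ppp1r3g, under the exact test, without the filter, at an unadjusted p and without both libraries of extreme mitochondrial share (chosen after seeing the data), and 0 to 1 with each library left out. In NAMPT LKO fasted against WT refed livers it was 3 under voomWithQualityWeights (Gys2, Ppp1r3b and Gbe1), 2 under the exact test, without the filter and in the fit of the 2 groups (Ppp1r3b and Ppp1r3g), 3 at an unadjusted p, and 0 to 1 with each library left out. Ppp1r3g met the main filter only through fasted livers, so its calls under that filter are a description. Over all genes, WT fasted against WT refed gave 946 calls, and 3331 under voomWithQualityWeights, 1198 under the exact test, 942 of 26175 genes without the filter, 1646 under DESeq2, 1649 in the fit of the 2 groups, 3002 at an unadjusted p, 2293 without the libraries of extreme mitochondrial share and 107 to 786 with each library left out. NAMPT LKO fasted against WT fasted gave 1, and 24 under the exact test, 24 under DESeq2, 2 with library size alone, 3 under filterByExpr, 17 without the filter, 811 at an unadjusted p and 1 to 2 with each library left out. NAMPT LKO fasted against WT refed gave 1510, and 4281 under voomWithQualityWeights, 1731 under the exact test, 1357 of 26175 genes without the filter, 1139 in the fit of the 2 groups, 3507 at an unadjusted p, 3329 without the libraries of extreme mitochondrial share and 227 to 2835 with each library left out. The cause of these shifts was not tested. With library size alone the median of all genes moved from 0.037 to -0.026, from 0.00025 to -0.028 and from 0.032 to -0.060, and the higher share of called genes from 38.1% to 25.7% and from 41.4% to 26.1% in the comparisons with refed livers.

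Of the log2 fold changes of the 9 genes under the alternatives, 353 kept direction and side of the threshold, 9 became called, 5 lost the call and 47 changed sign. Except for Ppp1r3g and Ppp1r3c, the changes of sign were in genes whose value was within 0.06 of 0. In WT fasted against WT refed livers, leaving out each library gave Pygl -0.12 to 0.091, Ppp1r3c -0.33 to 0.27, Ugp2 -0.15 to 0.11 and Gsk3b -0.17 to 0.11. Ugp2 was -0.0019 under DESeq2, -0.060 with library size alone, -0.0036 under filterByExpr, -0.011 without the filter and -0.010 in the fit of the 2 groups, and Pygl was 0.0011 without the libraries of extreme mitochondrial share. In NAMPT LKO fasted against WT fasted livers, leaving out each library gave Pygl -0.060 to 0.010, Ppp1r3g -1.96 to 2.35, Gbe1 -0.019 to 0.057, Phka2 -0.10 to 0.0057 and Gsk3b -0.023 to 0.077. Gbe1 was -0.036 under voomWithQualityWeights, -0.0097 with library size alone and -0.024 without the libraries of extreme mitochondrial share, where Pygl was 0.0018. In NAMPT LKO fasted against WT refed livers, leaving out each library gave Pygl -0.14 to 0.071 and Gsk3b -0.14 to 0.14. Gsk3b was -0.0019 under DESeq2, -0.081 with library size alone, -0.0050 under filterByExpr, -0.020 without the filter and -0.0031 in the fit of the 2 groups, and Pygl was 0.0029 without the libraries of extreme mitochondrial share.

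Replicate numbers 1 to 3 are shared by the fasted groups, but same-numbered livers are different mice and the correlations of their deviations were 0.094, 0.16 and 0.12, so the numbers were not taken to pair them, although each library correlated best with its own number. With the replicate block on these 6 libraries 0 genes were called, and 0 in the same libraries without the block. Under the block Pygl was 0.025, Ppp1r3g 0.84, Gbe1 -0.025 and Phka2 0.019. Without it Pygl was 0.029, Gbe1 -0.022 and Phka2 0.018. No paired analysis was possible for the comparisons with refed livers because their libraries carry no numbers. Ppp1r3g is limited by its low level in the refed livers, where it rests on 7 counts.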
